A study of Mus musculus with 24 samples.

Results

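The receptors and co-receptors through which macrophages sense microbes were followed in mouse bone marrow-derived macrophages given interleukin-4 (IL-4). The set held 10 genes of the 23420 in each of 2 expression tables, taken by symbol: the endotoxin genes Cd14, Ly96 and Tlr4, the lipopeptide receptors Tlr2, Tlr1 and Tlr6, and the nucleic acid receptors Tlr3, Tlr7, Tlr8 and Tlr9. Every member was present in both tables and passed the filter on low values in every comparison.

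The samples were 24 RNA sequencing libraries in 12 groups of 2, all from male C57BL/6 mice of 3 months, whose marrow cells had been differentiated for 6 days with M-CSF. In the 24 h experiment, with 8 samples and no genotype beyond the strain in the labels, cells received IL-4 together with GW9662, IL-4 with vehicle, GW9662 alone, or vehicle alone (DMSO and ethanol). GW9662 is a covalent antagonist of the nuclear receptor PPARγ. The 3 h experiment, with 16 samples, used cells labelled as Pparg knockout (PpargKO) and wild-type cells, each in 4 states. Re-exposed cells had IL-4 for 24 h, a washout of 24 h and IL-4 again for 3 h, and first-exposure cells had IL-4 for 3 h only. Washed-out cells had the 24 h of IL-4 and the 24 h washout without the second dose, and never-exposed cells had no IL-4. IL-4 was used at 20 ng/µl, as labelled. The labels name no allele, promoter or Cre for the knockout. Nothing in them tells if a pair of replicates stems from different mice or dishes. The p-values therefore measure the spread between these samples, which may be technical.

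Toll-like receptors are membrane proteins that bind conserved microbial products and signal through adaptors such as Myd88 and Ticam1 to NF-κB and interferon regulatory factors. Cd14 hands lipopolysaccharide to the complex of Ly96 (MD-2) and Tlr4 at the cell surface. Tlr2 binds bacterial lipopeptides as a heterodimer with Tlr1 or Tlr6. Tlr3, Tlr7, Tlr8 and Tlr9 lie in endosomes, where Tlr3 binds double-stranded RNA, Tlr7 single-stranded RNA and Tlr9 unmethylated CpG DNA, and the human counterpart of Tlr8 binds single-stranded RNA. IL-4 acts through STAT6 and turns macrophages towards the alternatively activated state.

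Levels are given in CPM, reads scaled to a common library size. The authors deposited the mean of each group, and the value of each library was recovered from the whole reads in that mean, which gave 1 solution for every member in every group. Values of a group are listed for its deeper library first and its shallower library second. Libraries held 15903723 to 27741970 reads on genes in the 24 h experiment and 5444413 to 16357673 in the 3 h experiment, and between 48 and 16832 reads stood behind each value of a member. The 7 macrophage markers (Csf1r, Emr1, Cd68, Itgam, Lyz2, Fcgr1 and Mertk) summed to 17500 to 38600 CPM per group in the 24 h experiment and to 12200 to 43100 CPM in the 3 h experiment, none of them at 0. T and NK cell markers summed to at most 0.481 CPM in any group and B cell markers to at most 6.69 CPM. The 4 plasmacytoid dendritic cell markers summed to 231 to 552 CPM, of which the defining Siglech and Ccr9 made at most 1.47 and 0.687 CPM. The 6 neutrophil markers summed to 237 to 507 CPM in the 24 h groups and to 30.8 to 148 CPM in the 3 h groups. In bulk RNA, fewer cells with a transcript and less transcript per cell cannot be told apart.

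A pair of features of the libraries touched the members. In the re-exposed wild-type group, the fibroblast markers Col1a1, Col1a2, Col3a1 and Dcn summed to 1070 and 37.4 CPM, against at most 9.83 CPM in any other library of the series. That group's libraries differed by more than 2-fold at 1172 of 8933 well-expressed genes (mean 10 CPM or more), against at most 324 genes between the libraries of any other group. The other feature was the level of Ubb, a ubiquitin gene with near copies, which split the libraries into a high and a low kind. The split is called counting kind here as a name only. Its source is not given in the labels and was not tested. Ubb read 421 to 458 CPM in 3 libraries of the 24 h experiment and 4.4 to 4.88 CPM in the other 5, and 289 to 468 CPM in 7 libraries of the 3 h experiment and 2.81 to 5.62 CPM in the other 9. All knockout-labelled libraries were of the low-Ubb kind and all wild-type libraries but the shallower washed-out library were of the high-Ubb kind. Apart from that library, genotype and counting kind coincide in the 3 h experiment, so they cannot be told apart for any gene.

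RefSeq promoter windows (GRCm38.p6), from 250 bases before to 50 after the RefSeq start, were matched for 6 members: Tlr2, Tlr1, Tlr6, Tlr3, Tlr8 and Tlr9. The windows of Tlr2 and Tlr9 are shown because these genes were called lower in all 6 comparisons that added IL-4, described further on. Tlr7 was also called lower in all 6, but no window was used for it. Capitals mark the NF-κB consensus in Tlr2 (chr3:83841559-83841858, minus strand) and the letters GAGGAA, the core bound by PU.1-type factors, in Tlr9 (chr9:106222348-106222647, plus strand), on either strand.
Tlr2: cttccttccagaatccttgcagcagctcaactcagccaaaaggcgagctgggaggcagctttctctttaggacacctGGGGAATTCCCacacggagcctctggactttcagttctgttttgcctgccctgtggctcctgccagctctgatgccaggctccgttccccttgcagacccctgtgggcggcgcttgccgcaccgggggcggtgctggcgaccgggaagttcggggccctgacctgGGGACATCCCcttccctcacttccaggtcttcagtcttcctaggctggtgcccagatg
Tlr9: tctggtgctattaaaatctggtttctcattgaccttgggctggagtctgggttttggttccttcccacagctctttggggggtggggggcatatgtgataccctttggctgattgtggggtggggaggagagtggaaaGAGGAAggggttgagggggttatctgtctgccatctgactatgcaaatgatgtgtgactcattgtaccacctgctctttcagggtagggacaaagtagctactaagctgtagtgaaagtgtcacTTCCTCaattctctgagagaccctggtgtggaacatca
In Tlr2 the NF-κB consensus matched at positions -173 and -172, which overlap, and at position -8, counted from the RefSeq start. The GENCODE start of Tlr2 lies 159 bases upstream of the RefSeq start, so part of this window is transcribed in that annotation. In Tlr9 the core matched at -112 and, on the other strand, at 12. Of 32851 RefSeq promoter windows of this length, 8.46% hold the NF-κB consensus and 28.3% hold GAGGAA. The window of Tlr3 held the NF-κB consensus once, at -211. The STAT6-type palindrome TTCNNNNGAA, held by 6.95% of windows, occurred once, in Tlr8 at -77, overlapping a match to GAGGAA on the other strand. TTCNNNGAA, held by 8.3% of windows, occurred in Tlr8, in 1 of 2 windows of Tlr1 and in 1 of 2 of Tlr6. GAAANNGAAA, held by 3.44%, occurred in the other window of Tlr6. All were searched on both strands, and a match describes the letters only.

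Among the members, Tlr1 and Tlr6 are the genes with sequence in common with each other. They lie side by side on chromosome 5 (GRCm38, GENCODE M21), Tlr1 at positions 64924679 to 64933563 and Tlr6 at 64952031 to 64960097, both on the minus strand. Of the 50-base words in Tlr6 exons, 12.3% also occur in Tlr1, and 13.6% of those in Tlr1 occur in Tlr6. At most 0.018% of the words of any other member occur in another gene. Tlr3 (chromosome 8, 45395665 to 45411080, minus strand) shares 381 exonic bases with Gm45542 on the opposite strand, and reads of the pair cannot be told apart without strand.

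The remaining members lie apart in the genome, except for the X-linked neighbours Tlr7 (167304929 to 167330558) and Tlr8 (167242696 to 167264329), both on the minus strand. Cd14 lies on chromosome 18 (36725067 to 36726798, minus strand), Ly96 on chromosome 1 (16688051 to 16709611, plus strand) and Tlr4 on chromosome 4 (66827584 to 66930284, plus strand). Tlr2 is on chromosome 3 (83836272 to 83841767, minus strand) and Tlr9 on chromosome 9 (106222598 to 106226883, plus strand).

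Per kilobase of exon, which allows levels of different genes to be set side by side, Cd14 was the highest member of the untreated cells. In vehicle-treated cells it stood at 339 and 320 CPM per kb. Tlr7, Tlr2, Tlr9 and Tlr8 followed with group means of 75.5, 74.4, 57.6 and 42.6 CPM per kb, and Tlr3 was lowest at 2.19 CPM per kb. Each member of that order exceeded the next in both libraries, except Tlr7 over Tlr2. After 24 h of IL-4 the order was headed by Tlr8 at a mean of 46.0 CPM per kb, above Cd14 at 35.0 CPM per kb, while Tlr2 had a mean of 8.92 CPM per kb. In never-exposed wild-type cells of the 3 h experiment Cd14 again led, with 271 and 274 CPM per kb, followed by Tlr7 at a mean of 103 CPM per kb. Tlr9 stood at a mean of 14.9 CPM per kb there and overlapped Ly96, and Tlr2 overlapped Tlr8. Never-exposed knockout-labelled cells had the same order of members, with each above the next in both libraries.

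After 24 h of IL-4, Cd14 and Tlr2 were lower by 9.36-fold and 8.12-fold than in vehicle-treated cells, and Tlr9, Tlr7 and Tlr3 were lower by 3.90-fold, 3.48-fold and 1.87-fold. The other 5 members, among them the endotoxin receptor Tlr4 itself, did not pass the test. In all, 5 of the 10 members were called lower and none higher, against 8.38% of the 11140 genes tested called lower, 9.8% called higher and 18.2% called either way. Calls are limma adjusted p under 0.05, and changes are differences on the log2(CPM + 1) scale with their standard errors (SE). The median change of the members was -0.81, beside -0.02 for all genes tested. The summed macrophage markers were 17500 and 17800 CPM in the groups with IL-4 plus GW9662 and IL-4, against 37300 and 38600 CPM with GW9662 and vehicle. Without Lyz2 they were 11000 and 11400 CPM, against 15800 and 15300 CPM. Neutrophil markers were 251 and 237 CPM, against 507 and 463 CPM. The part of either list in these results was not tested.

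**Figure D1:**
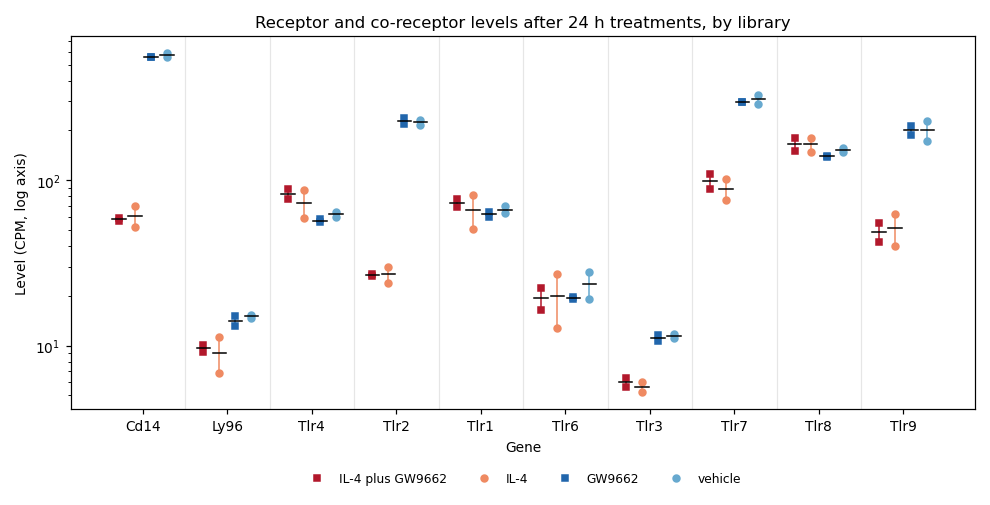
Level of each member in the 24 h experiment (CPM, logarithmic axis). Points are the 2 libraries of a group and the black bar is the deposited group mean; groups run from IL-4 plus GW9662 through IL-4 and GW9662 to vehicle. Cd14, Tlr2, Tlr7, Tlr9 and Tlr3 sit lower in both IL-4 groups than in both groups without IL-4, whereas Tlr8 overlaps or lies above.

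Cd14 had 51.9 and 69.4 CPM in IL-4 cells, against 587 and 554 CPM in vehicle cells. All libraries with IL-4 lay far below those without, and the change was -3.23 (SE 0.15, adjusted p = 3.4e-05). Ly96 had 11.2 and 6.82 CPM in IL-4 cells, against 14.6 and 15.4 CPM in vehicle cells. The groups did not overlap, yet the change of -0.71 (SE 0.26, adjusted p = 0.11) was not called. Tlr4 had 87.1 and 59.1 CPM in IL-4 cells, against 64.1 and 60.2 CPM in vehicle cells. One IL-4 library lay above and the other below both vehicle libraries, and the 95% interval of the change ran from -0.28 to 0.69.

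Tlr2, the shared chain of the lipopeptide receptors, had 30.0 and 23.8 CPM in IL-4 cells, against 232 and 216 CPM in vehicle cells. Its change was -3.02 (SE 0.17, adjusted p = 7.7e-05). Neither of its partner chains passed the test. Tlr1 had 81.3 and 50.8 CPM in IL-4 cells, against 63.3 and 69.7 CPM in vehicle cells, and Tlr6 had 26.9 and 12.7 CPM, against 19.2 and 27.7 CPM. The groups overlapped in both genes. The intervals of the changes were -0.56 to 0.46 for Tlr1 and -1.27 to 0.67 for Tlr6.

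Of the endosomal receptors, Tlr9 had 40.1 and 62.8 CPM in IL-4 cells, against 228 and 173 CPM in vehicle cells, a change of -1.96 (SE 0.34, adjusted p = 0.0071). Tlr7 had 102 and 75.8 CPM in IL-4 cells, against 328 and 289 CPM in vehicle cells, a change of -1.80 (SE 0.23, adjusted p = 0.0017). Both genes were clear of overlap. Tlr3, much less abundant, had 5.98 and 5.25 CPM in IL-4 cells, against 11.1 and 11.7 CPM in vehicle cells, a change of -0.91 (SE 0.22, adjusted p = 0.029). Its call was lost when either vehicle library was left out, with adjusted p up to 0.087. Tlr8 had 181 and 149 CPM in IL-4 cells, against 157 and 149 CPM in vehicle cells, and its change of 0.10 (SE 0.19, adjusted p = 0.77) was not called. The libraries of the IL-4 group differed more than those of the other 24 h groups (weight 0.21). Wherever 1 library of a group is left out, the remaining one is assumed to vary like the other groups, so calls gained that way rest on the spread of other groups and are no support for a change. Without its deeper library 8 members were called, with Ly96, Tlr1 and Tlr6 added to the lower side; without its shallower library, Tlr4 was called higher (0.48, adjusted p = 0.019). Over all genes these fits called 5747 and 3965, against 2025 with all libraries.

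With GW9662 present in both arms, the same contrast used 4 other libraries, and these were closer to one another. This comparison was added after the data had been seen. IL-4 plus GW9662 against GW9662 called 6 members lower and 2 higher, against 25.1% and 26.2% of 11130 genes (51.3% either way). Cd14 had 58.9 and 56.9 CPM with IL-4 plus GW9662, against 556 and 555 CPM with GW9662 (-3.24, SE 0.07, adjusted p = 8.3e-08). Tlr2 had 26.3 and 27.1 CPM with IL-4 plus GW9662, against 239 and 219 CPM with GW9662 (-3.06, SE 0.08, adjusted p = 1.8e-07). Neither gene's groups came near to overlapping. Tlr9, Tlr7, Tlr3 and Ly96 fell by 2.03, 1.60, 0.79 and 0.50 on the log2 scale (adjusted p = 2.4e-05, 1e-05, 0.00036 and 0.0083). Tlr4 had 89.0 and 76.7 CPM with IL-4 plus GW9662, against 55.6 and 58.1 CPM with GW9662, and rose by 0.53 (SE 0.09, adjusted p = 0.002). Tlr8 rose by 0.23 (SE 0.08, adjusted p = 0.046). The calls of Ly96 and Tlr8 were lost without any of several single libraries (adjusted p up to 0.18 and 0.48), and that of Tlr4 without either GW9662 library (adjusted p up to 0.091).

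GW9662 alone shifted the members little. GW9662 against vehicle called none of the 10 members by limma, none had an unadjusted p under 0.05, and limma-voom called none; 0% of the 10938 genes tested were called. The changes of the members lay between -0.24 (Tlr6) and 0.03 (Tlr2). The widest interval, that of Tlr6, ran from -0.69 to 0.21. Tlr4 had 55.6 and 58.1 CPM with GW9662, against 64.1 and 60.2 CPM with vehicle. Tlr8 had 139 and 140 CPM, against 157 and 149 CPM. The groups of these genes did not overlap. IL-4 plus GW9662 against IL-4 also called none of the members by either tool, with none at an unadjusted p under 0.05 and 0% of 10867 genes called. Cd14 had 58.9 and 56.9 CPM with IL-4 plus GW9662, against 51.9 and 69.4 CPM with IL-4, and Tlr2 had 26.3 and 27.1 CPM, against 30.0 and 23.8 CPM. The groups overlapped in both genes named. Tested as the difference between the IL-4 responses with and without the antagonist, the members gave values from -0.07 (Tlr9) to 0.33 (Tlr4), no call by either tool, and again no unadjusted p under 0.05, with 0% of 11232 genes called. The interval for Cd14 ran from -0.40 to 0.37 and that for Tlr2 from -0.48 to 0.41. Without the deeper IL-4 library, Tlr4 and Tlr1 were called higher with IL-4 plus GW9662 than with IL-4 (adjusted p = 0.038 and 0.035), in a fit that called 1895 genes and took the spread of the lone IL-4 library from the other groups.

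The 3 h experiment measured a shorter exposure to IL-4, and its levels were not compared with those of the 24 h experiment. A first exposure of 3 h lowered Tlr2 by 4.77-fold in knockout-labelled cells and by 5.0-fold in wild-type cells, the largest change of any member. Tlr9, Cd14, Tlr7 and Ly96 fell in both genotypes and Tlr4 rose in both. Among knockout-labelled cells 5 members were called lower and 2 higher, against 22.8% and 21.4% of 11208 genes (44.2% either way). Among wild-type cells 6 were called lower and 1 higher, against 25.1% and 24.7% of 11345 genes. With nearly 1 gene in 2 called in wild-type cells (49.8%), the count itself is not particular to the members.

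**Figure D2:**
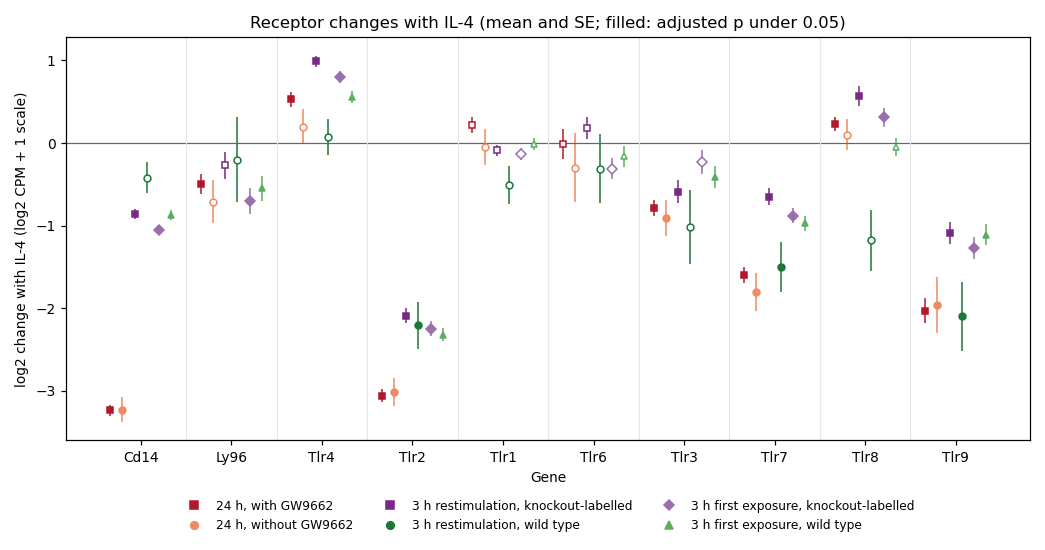
Change of each member with IL-4 (log2(CPM + 1) scale, mean and SE from limma) in 6 comparisons: 24 h with and without GW9662, 3 h of restimulation against washed-out cells, and 3 h of first exposure against never-exposed cells, each for knockout-labelled and wild-type cells. Filled symbols have an adjusted p under 0.05. Tlr2 lies between -3.06 and -2.09 in all of them, and Cd14 is at -3.24 and -3.23 at 24 h and between -1.05 and -0.42 at 3 h.

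Tlr2 had 40.0 and 44.9 CPM in first-exposure knockout-labelled cells, against 199 and 213 CPM in never-exposed ones (-2.25, SE 0.09, adjusted p = 4.2e-12). Wild-type cells had 35.6 and 37.0 CPM of Tlr2 after the first exposure, against 177 and 194 CPM in never-exposed cells (-2.32, SE 0.08, adjusted p = 2.1e-12). All exposed libraries lay far below all never-exposed ones, in both genotypes. Tlr1 and Tlr6, its partners, were called in neither genotype. Tlr1 changed by -0.13 (interval -0.28 to 0.02) in knockout-labelled cells and by -0.01 (-0.16 to 0.13) in wild-type cells. Tlr6 had 19.4 and 17.2 CPM in first-exposure knockout-labelled cells, against 23.4 and 22.4 CPM in never-exposed ones, groups that did not overlap, with a change of -0.31 (SE 0.13, adjusted p = 0.065).

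Cd14 had 299 and 282 CPM in first-exposure knockout-labelled cells, against 595 and 609 CPM in never-exposed ones (-1.05, SE 0.06, adjusted p = 2.6e-10). The wild-type values were 262 and 252 CPM, against 469 and 475 CPM (-0.87, SE 0.06, adjusted p = 1.7e-09). In each genotype the exposed libraries lay well below the unexposed ones. Ly96 fell by 0.70 (SE 0.16, adjusted p = 0.0017) in knockout-labelled cells and by 0.55 (SE 0.15, adjusted p = 0.0073) in wild-type cells. Its calls depended on single libraries, with adjusted p up to 0.087 and 0.21 when 1 of the 4 was left out.

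Tlr4 ran against its co-receptors. It had 205 and 219 CPM in first-exposure knockout-labelled cells, against 119 and 123 CPM in never-exposed ones (0.80, SE 0.07, adjusted p = 5.4e-08). The wild-type values were 198 and 201 CPM, against 141 and 129 CPM (0.56, SE 0.07, adjusted p = 2.5e-06). All exposed libraries were above all never-exposed ones of their genotype, and both calls held with each library left out.

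Tlr9 had 20.0 and 20.0 CPM in first-exposure knockout-labelled cells, against 48.2 and 51.3 CPM in never-exposed ones (-1.27, SE 0.13, adjusted p = 5.6e-07). Wild-type cells had 22.7 and 23.5 CPM, against 43.2 and 60.2 CPM (-1.11, SE 0.13, adjusted p = 2e-06). Every exposed library thus carried less Tlr9 than any never-exposed one. Tlr7 fell by 0.88 (SE 0.09, adjusted p = 7.3e-07) in knockout-labelled cells, to a mean of 244 CPM against 447 CPM. In wild-type cells it fell by 0.97 (SE 0.09, adjusted p = 1.6e-07), to 214 CPM against 421 CPM. Tlr3 was called lower in wild-type cells (-0.41, SE 0.13, adjusted p = 0.017) and not in knockout-labelled cells (-0.23, SE 0.14, adjusted p = 0.19), and Tlr8 was called higher in knockout-labelled cells (0.31, SE 0.11, adjusted p = 0.037) and not in wild-type cells (-0.05, SE 0.11, adjusted p = 0.75). Both of these calls were lost whichever library of the comparison was left out, with adjusted p up to 0.23 for Tlr3 and 0.35 for Tlr8. The test of the genotype difference itself called no member by limma or limma-voom, and 0.0261% of 11494 genes. An unadjusted limma p under 0.05 was held by 3 of the 10 members and by 1431 of those genes. For Tlr8 that difference was 0.36 (interval 0.02 to 0.69, adjusted p = 0.38) and for Tlr3 0.18 (-0.22 to 0.59, adjusted p = 0.71).

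**Figure D3:**
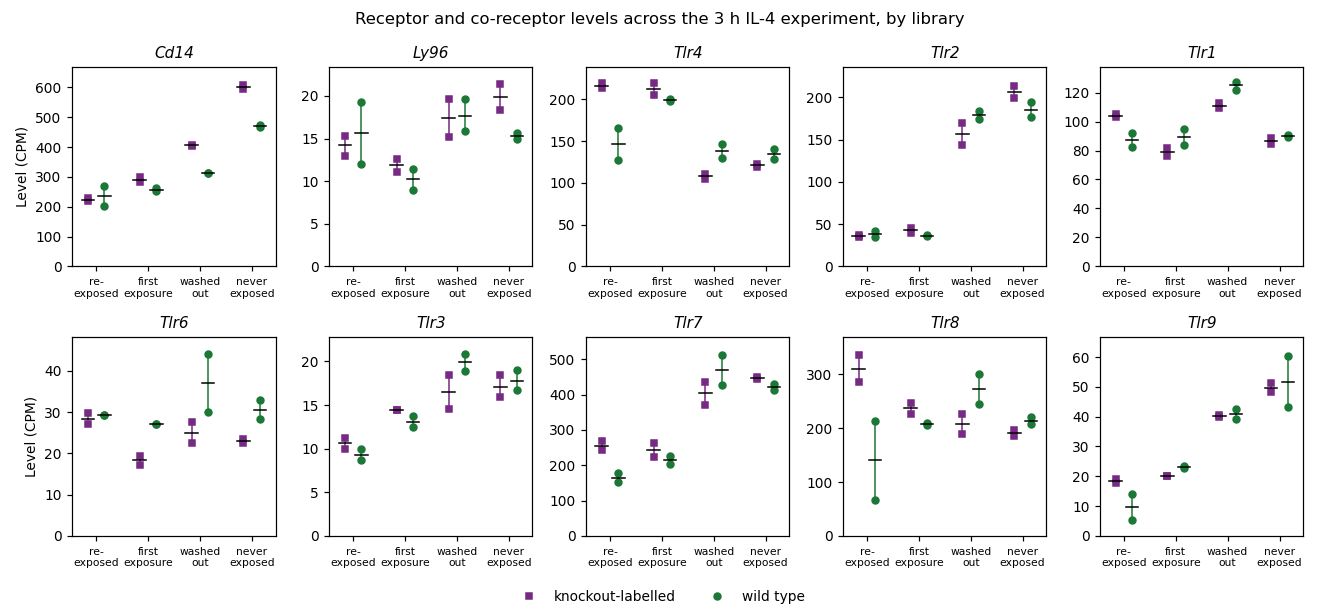
Level of each member (CPM, linear axis from 0) in the 3 h experiment. Points are the 2 libraries of a group, squares for knockout-labelled and circles for wild-type cells, and black bars are the deposited group means. Tlr2, Tlr7 and Tlr9 are low in the exposed and re-exposed groups and high in the washed-out and never-exposed groups, and the 2 re-exposed wild-type libraries lie far apart for Tlr8.

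A day after IL-4 had been washed out, Cd14 was still below its never-exposed level in both genotypes, while Tlr1 was above it. Cd14 had 407 and 405 CPM in washed-out knockout-labelled cells, against 595 and 609 CPM in never-exposed ones (-0.57, SE 0.06, adjusted p = 3.3e-06). In wild-type cells it had 313 and 313 CPM, against 469 and 475 CPM (-0.59, SE 0.07, adjusted p = 2.9e-05). The libraries were well separated, and both calls held with each library left out. Tlr1 had 113 and 109 CPM in washed-out knockout-labelled cells, against 88.7 and 84.6 CPM in never-exposed ones (0.35, SE 0.07, adjusted p = 0.0024). In wild-type cells it had 127 and 122 CPM, against 90.9 and 89.5 CPM (0.46, SE 0.09, adjusted p = 0.0019). These groups too were clear of each other, although the call in knockout-labelled cells was lost without any 1 of 3 libraries (adjusted p up to 0.14).

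The neutrophil marker list summed to 38.1 CPM in washed-out knockout-labelled cells, against 69.8 CPM in never-exposed ones, and to 44.6 CPM, against 108 CPM, in wild-type cells. The plasmacytoid list summed to 273 CPM, against 388 CPM, and to 247 CPM, against 350 CPM. Their part in these results was not tested.

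In all, 2 members were called lower and 1 higher in washed-out knockout-labelled cells, against 10.5% and 9.6% of 11230 genes (20.1% either way). In wild-type cells 1 was called lower and 1 higher, against 6.99% and 7.35% of 11369 genes (14.3% either way). Tlr2, which 3 h of IL-4 had lowered most, had 170 and 144 CPM in washed-out knockout-labelled cells, against 199 and 213 CPM in never-exposed ones (-0.39, SE 0.09, adjusted p = 0.0041). This call was lost without either never-exposed library or the shallower washed-out one (adjusted p up to 0.19). In wild-type cells Tlr2 had 174 and 184 CPM, against 177 and 194 CPM, overlapping groups with a change of -0.05 (interval -0.27 to 0.17). Tlr7 changed by -0.16 (-0.35 to 0.04) in knockout-labelled and 0.15 (-0.09 to 0.39) in wild-type cells. Tlr9 changed by -0.30 (-0.57 to -0.02, adjusted p = 0.12) and -0.31 (-0.65 to 0.02, adjusted p = 0.21), with both washed-out libraries below both never-exposed ones in each genotype. The genotype difference of the washed-out state called no member by limma or limma-voom, and 0% of 11507 genes. An unadjusted limma p under 0.05 was held by 1 member and by 883 of those genes. For Tlr2 the genotype difference was -0.34 (interval -0.63 to -0.05, adjusted p = 0.64).

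When washed-out cells were given IL-4 again for 3 h, Tlr2 fell by 4.27-fold in knockout-labelled and by 4.63-fold in wild-type cells, and Tlr7 and Tlr9 fell in both. Among knockout-labelled cells 5 members were called lower and 2 higher, against 16.5% and 19.3% of 11282 genes (35.8% either way). Tlr2 had 37.7 and 34.2 CPM in re-exposed knockout-labelled cells, against 170 and 144 CPM in washed-out ones (-2.09, SE 0.09, adjusted p = 2.6e-11). Tlr9 had 19.0 and 17.8 CPM, against 40.7 and 39.9 CPM (-1.09, SE 0.13, adjusted p = 7.9e-06). Tlr4 had 214 and 219 CPM, against 111 and 105 CPM, a rise of 0.99 (SE 0.07, adjusted p = 1.1e-08). In each of these genes both re-exposed libraries lay on the far side of both washed-out ones. Cd14 fell by 0.86 (SE 0.06, adjusted p = 8.9e-09), Tlr7 by 0.65 (SE 0.10, adjusted p = 4.6e-05) and Tlr3 by 0.59 (SE 0.14, adjusted p = 0.0038). Tlr8 had 285 and 335 CPM in re-exposed knockout-labelled cells, against 226 and 190 CPM in washed-out ones, a rise of 0.57 (SE 0.12, adjusted p = 0.0012). The calls of Tlr3 and Tlr8 were each lost without either of 2 libraries (adjusted p up to 0.11 and 0.076).

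In wild-type cells 3 members were called lower and none higher, against 2.23% and 2.63% of 11958 genes (4.86% either way). The re-exposed group entered this fit with a weight of 0.08, against 0.82 to 2.29 for the other groups of the table, because its libraries lay so far apart. Tlr2 had 41.3 and 34.6 CPM in re-exposed wild-type cells, against 174 and 184 CPM in washed-out ones (-2.21, SE 0.28, adjusted p = 0.00027). Tlr7 had 179 and 152 CPM, against 426 and 513 CPM (-1.50, SE 0.30, adjusted p = 0.0091). Tlr9 had 14.2 and 5.26 CPM, against 39.3 and 42.4 CPM (-2.10, SE 0.42, adjusted p = 0.01). Even the higher of the re-exposed libraries was below both washed-out libraries in all of these genes. Tlr4 and Cd14 were not called in wild-type cells. Tlr4 had 166 and 127 CPM after re-exposure, against 130 and 147 CPM after washout, and the groups overlapped. Cd14 had 313 and 313 CPM in the washed-out libraries and 204 and 269 CPM in the re-exposed libraries. The fibroblast markers summed to 1070 and 37.4 CPM in these libraries, against 4.92 and 8.28 CPM in the washed-out ones, and the neutrophil markers to 225 and 69.7 CPM, against 47.8 and 41.4 CPM. Their part in the result was not tested. Without the deeper or the shallower re-exposed library 7 members were called, among 6984 and 4198 of all genes (581 with both); the spread was again taken from the other groups. Tlr2, Tlr7 and Tlr9 were called with any single library left out. Leaving out a re-exposed library drops that group's wide spread from the test, so a call kept there is no support. With no filter on low values only Tlr2 stayed called. Across the alternatives adjusted p reached 0.083 for Tlr7 and 0.056 for Tlr9.

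Tlr8, like Tlr9, differed more than 2-fold between the re-exposed wild-type libraries. It had 213 and 66.8 CPM in re-exposed wild-type cells, against 245 and 301 CPM in washed-out ones, a change of -1.18 (SE 0.37, adjusted p = 0.081). The lower value came from the library with 37.4 CPM of fibroblast markers and the other from the library with 1070 CPM. The genotype difference of this response, tested as a comparison added after the data had been seen, was 1.75 for Tlr8 (SE 0.39, interval 0.93 to 2.58, adjusted p = 0.3). No member was called in it by limma or limma-voom, and 0% of 12072 genes were called. An unadjusted limma p under 0.05 was held by 5 members and by 1122 of those genes. Without the deeper re-exposed wild-type library 6 members were called, without the shallower one 4, and without the deeper washed-out wild-type library 2 (Tlr4 and Tlr8), among 5014, 1506 and 464 of all genes. The lone library was then assumed to vary like the other groups, so these calls are no support for a genotype difference.

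Set against the first exposure, the second gave wild-type cells no called member by limma or limma-voom, with 0.311% of 11880 genes called. An unadjusted limma p under 0.05 was held by 3 members and by 1022 of those genes. The changes ran from -1.30 (Tlr9, SE 0.41, adjusted p = 0.21) to 0.55 (Ly96, SE 0.50). With the deeper re-exposed library left out 6 members were called and with the shallower one left out 3, among 5788 and 3528 of all genes, again with the spread taken from other groups. In knockout-labelled cells 2 members were called lower and 3 higher in re-exposed than in first-exposure cells, against 10.1% and 12.8% of 11190 genes (22.9% either way). Cd14 had 218 and 230 CPM in re-exposed knockout-labelled cells, against 299 and 282 CPM in first-exposure ones (-0.37, SE 0.06, adjusted p = 0.00023). Tlr1 had 103 and 105 CPM, against 76.0 and 81.9 CPM (0.39, SE 0.07, adjusted p = 0.0011), and Tlr6 had 29.7 and 27.0 CPM, against 19.4 and 17.2 CPM (0.60, SE 0.13, adjusted p = 0.0038). None of these groups overlapped. Tlr8 rose by 0.38 (SE 0.12, adjusted p = 0.028) and Tlr3 fell by 0.41 (SE 0.14, adjusted p = 0.046). The calls of Tlr3 and Tlr8 were lost whichever library was left out (adjusted p up to 0.38 and 0.42), that of Tlr6 without any of 3 (up to 0.13) and that of Tlr1 without the shallower re-exposed one (0.06). The call of Cd14 held with each library left out but was lost in another alternative fit (adjusted p = 0.059). Tlr2 differed by -0.23 (interval -0.42 to -0.04, adjusted p = 0.07) and was not called.

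Whether the 3 h response after pretreatment differed in size from the first 3 h response was tested as a difference between the 2 responses. It called no member by limma or limma-voom in either genotype. In knockout-labelled cells 1.46% of 11435 genes were called, and in wild-type cells 0.0248% of 12074. An unadjusted limma p under 0.05 was held by 2 members and 1830 of all genes in knockout-labelled cells. In wild-type cells it was held by 4 members and 725 of all genes. For Tlr2 the difference was 0.16 (interval -0.10 to 0.42) in knockout-labelled and 0.11 (-0.51 to 0.73) in wild-type cells. For Cd14 it was 0.19 (0.02 to 0.37, adjusted p = 0.26) and 0.46 (0.05 to 0.87, adjusted p = 0.7). In wild-type cells, 7 members were called without the deeper re-exposed library and 2 without the shallower one, among 3461 and 1909 of all genes, on the spread of other groups.

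Pparg, the gene named in the knockout label, had 22.3 and 19.9 CPM in never-exposed knockout-labelled cells, against 24.2 and 21.9 CPM in wild-type ones. Across states the knockout-labelled libraries ranged from 19.9 to 45.5 CPM and the wild-type ones from 19.0 to 34.8 CPM, and in none of the 4 states was the genotype difference called (adjusted p 0.2 to 1). The deleted part is not named in the labels, so a total over the gene does not check it. Lyz2, the lysozyme gene whose locus carries Cre in a widely used macrophage deleter line, averaged 14.5 to 41.8 CPM in the knockout-labelled groups, against 22000 to 30700 CPM in the wild-type groups. The other 6 macrophage markers summed to 12100 to 14600 CPM in knockout-labelled groups, against 8560 to 12400 CPM in wild-type groups. The labels name no Cre, and the reason for the difference in Lyz2 was not tested.

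The genotypes were compared in each of the 4 states. In never-exposed cells 1 was called higher and 1 lower in knockout-labelled than in wild-type cells, against 7.74% and 10.7% of 11280 genes (18.4% either way). After the first exposure none was called higher and 1 lower, against 1.55% and 7.6% of 11245 genes (9.15% either way). In washed-out cells 1 was higher and 1 lower, against 1.3% and 1.87% of 11347 genes (3.17% either way). In re-exposed cells none was called by limma or limma-voom, and 0.0168% of 11894 genes were called. An unadjusted limma p under 0.05 was held there by 4 members and by 1046 of those genes. With either re-exposed wild-type library left out, 5 and 4 members were called there, among 6191 and 3619 of all genes, on the spread of other groups.

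Cd14 was the higher one in both unstimulated states. It had 595 and 609 CPM in never-exposed knockout-labelled cells, against 469 and 475 CPM in wild-type ones (0.35, SE 0.05, adjusted p = 0.00028), and 407 and 405 CPM in washed-out knockout-labelled cells, against 313 and 313 CPM in wild-type ones (0.37, SE 0.07, adjusted p = 0.014). The libraries did not overlap in either state. Both calls were lost when single knockout-labelled libraries were left out (adjusted p up to 0.061 and 0.15). With counting kind as a term, the difference was 0.35 in never-exposed cells, where it was no longer called (adjusted p = 0.15), and 0.37 in washed-out cells, where it was (adjusted p = 0.0083). Without group weights neither was called (adjusted p = 0.12 and 0.19). In the washed-out state both wild-type libraries, 1 of each counting kind, had 313 CPM. In the 3 h experiment the counting kind term rests on this pair alone, so it cannot separate genotype from counting kind. In the 24 h groups with both kinds, Cd14 was lower in the high-Ubb library. The log2 differences were -0.08 with vehicle, -0.41 with IL-4 and -0.05 with IL-4 plus GW9662. The neutrophil markers summed to 69.8 CPM in never-exposed and 38.1 CPM in washed-out knockout-labelled cells, against 108 and 44.6 CPM in wild-type ones. Their part was not tested. Tlr4 was called lower in washed-out knockout-labelled cells, at 111 and 105 CPM, against 130 and 147 CPM in wild-type ones (-0.35, SE 0.08, adjusted p = 0.04), a call lost without any 1 of 3 libraries (adjusted p up to 0.4).

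Tlr6 was the member called lower in knockout-labelled cells, before IL-4 and after the first exposure. It had 23.4 and 22.4 CPM in never-exposed knockout-labelled cells, against 32.8 and 28.3 CPM in wild-type ones (-0.40, SE 0.12, adjusted p = 0.034). After the first exposure it had 19.4 and 17.2 CPM in knockout-labelled cells, against 27.1 and 27.2 CPM in wild-type ones (-0.55, SE 0.13, adjusted p = 0.012). The wild-type libraries were the higher ones in both states, and all of them were of the high-Ubb kind. With counting kind as a term in the fit, chosen after seeing the data, the differences became 0.14 (adjusted p = 0.76) and -0.01 (adjusted p = 1). In the 3 h experiment that term rests on the pair of washed-out wild-type libraries alone. It therefore cannot separate genotype from counting kind. Both calls were also lost whichever library was left out, with adjusted p up to 0.45 and 0.25.

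Within groups that held 1 library of each counting kind, Tlr6 was higher in the high-Ubb library in all 4, by 0.42 to 1.02 on the log2 scale. The washed-out wild-type group had 44.1 CPM in its high-Ubb and 30.1 CPM in its low-Ubb library, and the IL-4 group had 26.9 and 12.7 CPM. Tlr1 was higher in the high-Ubb library in all 4 groups as well, by 0.06 to 0.67. Tlr9 was lower in the high-Ubb library in all 4, with differences of -0.64 to -0.11. Cd14 was lower or equal in all 4 (-0.41 to 0.00), and the other members went both ways. Each of these differences sets 1 library against 1, and their cause was not tested. IL-4 against vehicle could be read within each kind, with 1 library a side and no test. In low-Ubb libraries Cd14, Tlr2, Tlr7 and Tlr9 differed by -3.06, -3.23, -2.10 and -1.84, and in high-Ubb libraries by -3.39, -2.81, -1.50 and -2.08. Ly96, Tlr6 and Tlr3 also differed downward in both kinds. The sign turned for the other members, with Tlr4 at -0.12 in low-Ubb and 0.53 in high-Ubb libraries, Tlr1 at -0.31 and 0.22, and Tlr8 at -0.07 and 0.28.

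**Figure D4:**
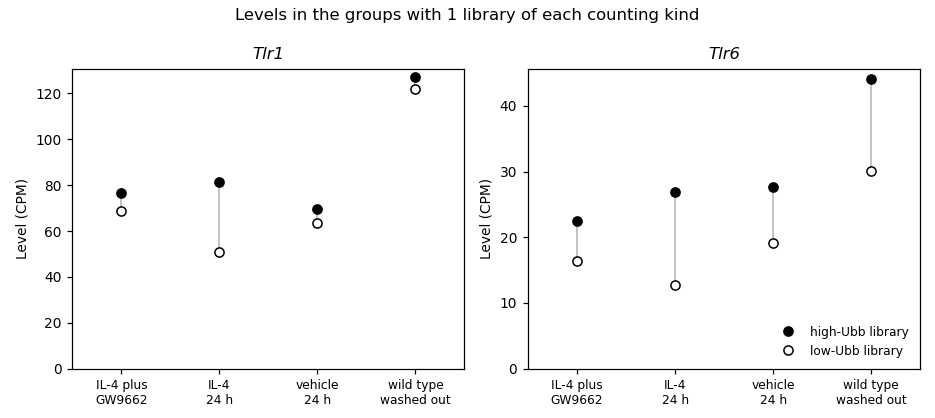
Levels of Tlr1 and Tlr6 (CPM, linear axis from 0) in the 4 groups that hold 1 library of each counting kind. Filled points are libraries with 289 to 468 CPM of Ubb and open points are libraries with 2.81 to 5.62 CPM; the filled point is the higher one in every group for both genes.

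The other genes of the pathway were counted by list. Over all genes, 8.38% were called lower and 9.8% higher at 24 h, and after the first exposure 22.8% lower and 21.4% higher in knockout-labelled cells and 25.1% lower and 24.7% higher in wild-type cells. Among transcripts that Toll-like receptors are known to induce, 6 of 10 were tested at 24 h and 5 were called lower with IL-4, with a median of -1.98 beside -0.02 for all genes. Cxcl10, a T cell attractant, averaged 0.336 CPM in IL-4 cells and 26.8 CPM in vehicle cells (-4.39, SE 0.37, adjusted p = 0.00036). Il1b, the pyrogenic cytokine, averaged 0.412 CPM in IL-4 cells and 20.0 CPM in vehicle cells (-3.89, SE 0.43, adjusted p = 0.00095). After 3 h of first exposure 4 of 7 tested targets were lower and 1 higher in knockout-labelled cells and 5 of 6 lower in wild-type cells, where 44.2% and 49.8% of all genes were called either way. Tnf, the archetypal target, averaged 8.75 CPM in first-exposure and 33.4 CPM in never-exposed knockout-labelled cells (-1.85, SE 0.17, adjusted p = 2.1e-07), and 5.41 and 23.7 CPM in wild-type cells (-1.95, SE 0.17, adjusted p = 8.5e-08). After washout Tnf was still lower than in never-exposed cells (-0.99, adjusted p = 0.00074, in knockout-labelled and -1.29, adjusted p = 0.00065, in wild-type cells).

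Of 14 other pattern receptors, 10 were called lower and 1 higher at 24 h, against 8.38% and 9.8% of all genes, with a median of -1.23 beside -0.02 for all genes. The C-type lectin Clec4n (Dectin-2) averaged 9.89 CPM in IL-4 cells and 297 CPM in vehicle cells (-4.78, SE 0.21, adjusted p = 2.8e-05), and Clec4d averaged 73.4 and 781 CPM (-3.40, SE 0.16, adjusted p = 3.5e-05). The beta-glucan receptor Clec7a (Dectin-1) was the one that rose, to 469 CPM with IL-4, against 121 CPM with vehicle (1.91, SE 0.25, adjusted p = 0.0019). At 3 h, 6 were called lower and 4 higher in each genotype, with medians of -0.15 and -0.09, where 44.2% and 49.8% of all genes were called. Clec7a averaged 675 CPM in first-exposure and 96.2 CPM in never-exposed knockout-labelled cells (2.80, SE 0.08, adjusted p = 1.9e-13), and 420 and 90.0 CPM in wild-type cells (2.21, SE 0.08, adjusted p = 2.6e-12).

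Of 11 further Toll-like receptors, chaperones and co-receptors, 10 were tested at 24 h, with 4 called lower and 3 higher, against 18.2% of all genes called either way. Tlr13, the endosomal sensor of bacterial ribosomal RNA, averaged 134 CPM in IL-4 cells and 326 CPM in vehicle cells (-1.31, SE 0.28, adjusted p = 0.018). At 3 h it averaged 191 CPM in first-exposure and 735 CPM in never-exposed knockout-labelled cells (-1.94, SE 0.09, adjusted p = 4.6e-11), and 155 and 639 CPM in wild-type cells (-2.03, SE 0.09, adjusted p = 1.9e-11). Cd180, a surface relative of Tlr4, fell by 1.19 in knockout-labelled and by 1.23 in wild-type cells (adjusted p = 3.3e-09 and 1.6e-09), and its partner Ly86 rose by 0.38 and by 0.57 (adjusted p = 0.00029 and 3.4e-06).

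Of 6 adaptors, 1 was called higher and 1 lower at 24 h, against 18.2% of all genes called either way. Ticam1, the adaptor of Tlr3, averaged 92.9 CPM in IL-4 cells and 45.0 CPM in vehicle cells (1.02, SE 0.17, adjusted p = 0.006), and Pik3ap1, which links the receptors to PI3 kinase, averaged 216 and 576 CPM (-1.41, SE 0.25, adjusted p = 0.0076). Among 17 kinases and ligases 5 were lower and 1 higher at 24 h, and at 3 h 7 were lower and 4 higher in knockout-labelled and 6 lower and 4 higher in wild-type cells. The shares of all genes called either way were 18.2% at 24 h and 44.2% and 49.8% at 3 h. Irak2 averaged 18.5 CPM in first-exposure and 57.2 CPM in never-exposed knockout-labelled cells (-1.58, SE 0.09, adjusted p = 7.8e-10), and Map3k8 averaged 63.6 and 32.4 CPM (0.95, SE 0.10, adjusted p = 8.4e-07).

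Of 10 transcription factors, 4 were called higher and 2 lower after the first exposure in knockout-labelled cells and 6 higher and none lower in wild-type cells, where 44.2% and 49.8% of all genes were called. At 24 h 1 was called higher and 3 lower, against 18.2% of all genes. Irf7 averaged 403 CPM in first-exposure and 105 CPM in never-exposed wild-type cells (1.93, SE 0.09, adjusted p = 2.3e-11). At 24 h it was lower, with 154 CPM in IL-4 cells and 783 CPM in vehicle cells (-2.34, SE 0.34, adjusted p = 0.0032). Of 10 negative regulators, 2 were called higher and 2 lower at 24 h, where 18.2% of all genes were called. At 3 h 2 were called each way in knockout-labelled and 3 each way in wild-type cells, where 44.2% and 49.8% of all genes were called. Socs1, a feedback inhibitor of cytokine signalling, averaged 282 CPM in first-exposure and 0.923 CPM in never-exposed knockout-labelled cells (7.20, SE 0.13, adjusted p = 6e-16). Irak3, an inhibitor of receptor signalling, averaged 25.0 and 55.6 CPM (-1.12, SE 0.08, adjusted p = 1.1e-08).

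Across the 8 group means of the 3 h experiment, 6 members spanned at least 2-fold, and genes with the highest Pearson r on log2(CPM + 1) among 2627 eligible genes, at most 3 for each member, are named. These values describe 8 points and have no p. Tlr2 was closest to Dapk1 (r = 0.994), F630028O10Rik (0.994) and Lpin2 (0.993). Tlr9 was closest to Wasf2 (0.996), Casp2 (0.994) and Dock8 (0.990), and Tlr7 to Itga4 (0.993) and Arrb1 (0.993). Cd14 was closest to Xylt2 (0.991), Tnf (0.989) and Pilra (0.981). Tlr3 was closest to Zfhx2 (0.950), Nlrp3 (0.944) and Mgat4a (0.944), and Tlr8 less closely to Mx1 (0.821), Rel (0.803) and Xrn1 (0.785). The remaining 4 members, Ly96, Tlr4, Tlr1 and Tlr6, spanned between 0.65 and 0.99 on the log2 scale and were not matched.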

How the data were processed

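RNA from 24 macrophage samples was sequenced as poly-A libraries without strand, per the labels' protocols. The authors deposited 2 tables of signal values, 1 averaged CPM value per gene and group, for 23420 genes each. Tools named in the submitters' processing notes are TopHat2 2.0.7, Cufflinks 2.0.2 and mm10, and the counting settings are not given in the sources used here. The members and gene lists were chosen with earlier results of these data known.

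An average of 2 libraries is a sum of whole reads of each, and the step size of 1 read was fitted per library, so that 170961 of 171808 values above 0 (99.5%) separated into whole reads. The other 847 entered as group means with a weight of 2, and all values of the members separated. The deeper and shallower library of a group cannot be tied to a replicate number. Columns summed to 951943 to 1054527 (24 h) and 957489 to 1022961 (3 h), so values of the tables were not compared with each other.

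Differences were tested with limma 3.58.1 (R 4.3.3), with a trend and 1 weight per group, on log2(CPM + 1). A gene entered where any group compared averaged 1 CPM or more. Tests were two-sided, over all such genes, with Benjamini-Hochberg adjustment, and intervals are 95%. Every p called adjusted is limma's. The scale understates changes of low genes. Alternatives were a pseudocount of 0.25 CPM, no filter, no group weights, limma-voom on the separated reads, trimmed-mean rescaling, counting kind as a term, the 3 h fit without the re-exposed wild-type group, and leaving out each library; the steps were tested on simulated data. Of the other genes of the pathway, the called ones with the largest changes, at most 3 in each direction per list, could be named. Positions are from GENCODE M21 and promoters from RefSeq (GRCm38.p6), which hold no window used here for Cd14, Ly96, Tlr4 and Tlr7. Of the genes most like Tlr7, 1 is not reported here.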

Additional observations from a re-analysis of the deposited data

Results flagged for a closer look

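For Tlr8, the libraries of the 2 genotypes lay on opposite sides of their washed-out levels after the second dose of IL-4. Both re-exposed knockout-labelled libraries (285 and 335 CPM) lay above both washed-out ones (226 and 190 CPM), whereas both re-exposed wild-type libraries (213 and 66.8 CPM) lay below both washed-out ones (245 and 301 CPM). The genotype difference, a comparison added after the data had been seen, was 1.75 on the log2(CPM + 1) scale (SE 0.39, limma adjusted p = 0.3) and was not called. Left out in turn, single libraries gave 0.92 to 2.58; a group left with 1 library is then assumed to vary like the others. The re-exposed wild-type libraries differ in their fibroblast markers (1070 and 37.4 CPM) and neutrophil markers (225 and 69.7 CPM), whose part was not tested.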

How the results depend on the processing

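Counts here are members called. Among results of single members, leaving out 1 library lost 58 calls, gained 58 and kept the side of 1004 results. The other alternatives lost 31, gained 22, turned the sign of 1 and kept 1386. Of 52 member calls, 31 held with each library left out and 21 were lost with at least 1. Without group weights, counts became 1 (from 3) for washed-out and 1 (from 5) for second against first exposure in knockout-labelled cells, 2 (from 0) for second against first exposure and 7 (from 3) for restimulation in wild-type cells, and 5 (from 8) for IL-4 plus GW9662 against GW9662. For knockout-labelled against wild type they became 0, 0, 0 and 3 in never-exposed, first-exposure, washed-out and re-exposed cells (from 2, 1, 2 and 0). With no filter, they became 1 for wild-type restimulation and 1, 2 and 1 for genotype in the first 3 states, and with trimmed-mean rescaling 2 after the first exposure. With counting kind as a term, they became 2 for second against first exposure in wild-type cells. For genotype they became 0, 0 and 4 in the first 3 states, and 1 for its difference in restimulation. Tlr6 turned to 0.14 in never-exposed cells. In the 3 h experiment that term rests on the pair of washed-out wild-type libraries alone. The cause was not tested.

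Over all genes, dropping the group weights moved the calls from 2025 to 3591 for IL-4 at 24 h and from 5714 to 3309 with GW9662 in both arms. It gave 2688 and 2950 genes for the first exposure of knockout-labelled and wild-type cells (main 4956 and 5652), 569 and 726 for washout (2255 and 1631), 802 and 1241 for second against first exposure (2564 and 37) and 2066 and 4452 for restimulation (4042 and 581). For genotype it gave 345, 298, 30 and 1304 across the states (2076, 1029, 360 and 2). Counting kind as a term gave 47, 36, 1543 and 8 there, 3373 for IL-4 at 24 h, 64 for GW9662 (main 0), and 691 and 1134 for second against first exposure and restimulation in wild-type cells. With no filter these were 7 and 210, and genotype in washed-out cells gave 184. For wild-type second against first exposure limma-voom gave 377, and for genotype in re-exposed cells 335. Tests of differences between responses gave at most 167 genes, and dropping the weights gave 7 and 98 for the second against the first response of knockout-labelled and wild-type cells (main 167 and 3). Leaving the re-exposed wild-type group out of the 3 h fit lost 1 call of a member, Tlr3 in second against first exposure of knockout-labelled cells (adjusted p = 0.053).

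With 1 library left out, its group's spread is taken from the other groups, so a gained call is no support; counts ranged from 4 to 8 for IL-4 at 24 h, 5 to 7 for IL-4 plus GW9662 against GW9662, 0 to 2 for IL-4 plus GW9662 against IL-4, and 1 to 2 for washed-out knockout-labelled cells. They ranged from 1 to 3 and 0 to 6 for second against first exposure in knockout-labelled and wild-type cells, 3 to 7 for wild-type restimulation, and 0 to 7 for its difference from the first response. For genotype they ranged from 0 to 1, 0 to 0, 0 to 3 and 0 to 5 across the states, and 0 to 6 for its difference in restimulation. A call kept without a library of a group whose libraries lay far apart is no support either. No paired analysis was possible because replicate numbers cannot be tied to the separated libraries. With 2 libraries a group, small changes could not be resolved.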
